A study of Xenopus laevis with 18 samples.

Results

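Embryos of the frog Xenopus laevis, J strain, at the stages in which the neural tube closes were set against embryos of the preceding stages. The later group, NF18-23, holds the libraries of NF18, NF20 and NF23 in the Nieuwkoop and Faber (NF) series of stages, and the earlier group, NF12-16, holds those of NF12, NF14 and NF16. These 6 libraries, of 18 in the series, were taken by their stage labels. Each is rRNA-depleted RNA of untreated whole embryos raised in dilute saline with gentamycin, and each stage has 1 library. The 3 members of a group are therefore 3 stages and not replicate samples of 1 stage, and the spread in each SD and test between the groups includes real change between neighbouring stages. The number of embryos or clutches in a library is not stated in the labels.

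During neurulation the ectoderm above the dorsal midline thickens into the neural plate, its borders lift into folds, and the folds meet and fuse into the tube that becomes brain and spinal cord. NF12 is a late gastrula, NF14 has an open neural plate and NF16 has rising folds. At NF18 the folds approach each other, by NF20 they have met, and NF23 is an early tailbud embryo. Over the same stages somites form, the first neurons differentiate, the epidermis gains its ciliated cells, and maternal messages left from the egg are still being replaced. A whole-embryo library pools all these tissues, so more cells of a type and more RNA per cell cannot be told apart, and no difference below can be assigned to the neural tube.

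The table held 31085 rows, of which 30993 were Xenopus transcripts. The remaining 92 were spike-ins of the ERCC set, which are synthetic RNAs of known make-up. No Xenopus row name was found in the RefSeq gene table (0 matches), so no gene is named, no marker gene of a tissue could be checked, and transcripts are grouped by their levels. X. laevis has an allotetraploid genome with many near-identical gene pairs, and a row that shares reads with such a copy cannot be recognised from its name. In all, 63 rows were listed at 0 in 1 of the 6 libraries while both neighbouring stages stood at 10 TPM or more, so a 0 is not evidence of absence. TPM keeps no depth, and the depth of the libraries is unknown.

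The columns of NF18, NF20 and NF23 sum to 2.49%, 2.26% and 2.13% over 1000000 as deposited, and those of NF12, NF14 and NF16 sum to 1000000 within rounding, so the kind of column and the group cannot be told apart within these 6 libraries. The excess lies in the spike-in rows. In the 9 columns of the series that exceed 1000000, no Xenopus value has more than 2 decimals, whereas 32 to 34 spike-in rows per column do. ERCC spike-ins are sold as a pair of mixes with the same RNAs in 4 subgroups of 23 at fixed ratios. Dividing out ratios of 1/4, 1, 1/0.67 and 2 for these subgroups brought all 9 columns back to 1000000, to within 20. Every TPM value below was rescaled so that the Xenopus rows sum to 1000000, which removes this conversion from the Xenopus values, and it remains in any value given per spike-in total.

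The amount of Xenopus RNA relative to the spike-ins was higher on average at NF18-23, but the groups overlapped. The Xenopus total per spike-in total was 1.89 at NF18, 2.09 at NF20 and 2.88 at NF23, against 1.39 at NF12, 1.91 at NF14 and 1.503 at NF16. The library of NF14 thus stood slightly above that of NF18, and NF23 stood apart at the top. The means were 2.29 ± 0.526 at NF18-23 and 1.60 ± 0.273 at NF12-16 (SD, n = 3 each), a ratio of 1.43 (exact permutation test, two-sided, p = 0.2, adjusted 0.4 over 4 library measures). With 3 libraries against 3, no p below 0.1 is possible. Counted against only the 23 spike-ins that both mixes hold in equal amounts, which the conversion leaves alone, the ratio of the means was 1.46 and the groups did not overlap, with 12.7, 13.8 and 19.1 at NF18, NF20 and NF23 against 9.04, 12.1 and 10.0 at NF12, NF14 and NF16 (exact permutation test, two-sided, p = 0.1).

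Other library measures differed little. Rows above 0 numbered 23715, 24188 and 25770 at NF18, NF20 and NF23, against 23744, 23569 and 23196 at NF12, NF14 and NF16, with NF18 inside the range of the earlier group (exact permutation test, two-sided, p = 0.2, adjusted 0.4). Rows at 10 TPM or more averaged 10795 ± 386 at NF18-23 and 10547 ± 325 at NF12-16 (SD, n = 3 each, exact permutation test, p = 0.5, adjusted 0.5). The top 100 rows by level held 28.7% ± 1.57 of the Xenopus total at NF18-23 and 27.3% ± 1.04 at NF12-16 (SD, n = 3 each, exact permutation test, p = 0.3, adjusted 0.4). The most abundant row of all stood at 31655, 26210 and 22067 TPM at NF18, NF20 and NF23, against 20287, 24973 and 27861 TPM at NF12, NF14 and NF16. Its level was highest at NF18 and lower on both sides, so the groups overlapped for it.

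The transition was uneven from stage to stage, and its largest step lay inside the earlier group, before the neural folds form. The shares below are per step between stages and are not rates over time. Of 10948 rows that averaged 10 TPM or more over the 6 libraries, 15.4% differed 2-fold or more between NF12 and NF14, where 930 rows were higher and 760 lower at NF14. Between NF14 and NF16 only 1.99% differed that far, with 110 higher and 108 lower. The step from NF16 to NF18, which leads into the stages of closure and also joins both kinds of column, was at 3.85%, with 265 higher and 157 lower. Inside the later group, NF18 to NF20 was at 5.69% (315 higher, 308 lower) and NF20 to NF23 at 4.74% (247 higher, 272 lower). The steps inside a kind thus ran from 1.99% to 15.4%. The part of the kind of column in the step from NF16 to NF18 was not tested. Each step sets 1 library against 1 and has no replicate check. Spike-in rows, which have no stage, differed 2-fold in 1 to 4 of 66 rows per step, or 1.52% to 6.06%, so by this share only the step from NF12 to NF14 exceeded every spike-in step. The robust SD of the log2 difference separates them better, at 0.26 to 0.59 for Xenopus rows and 0.12 to 0.17 for spike-in rows.

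**Figure D1:**
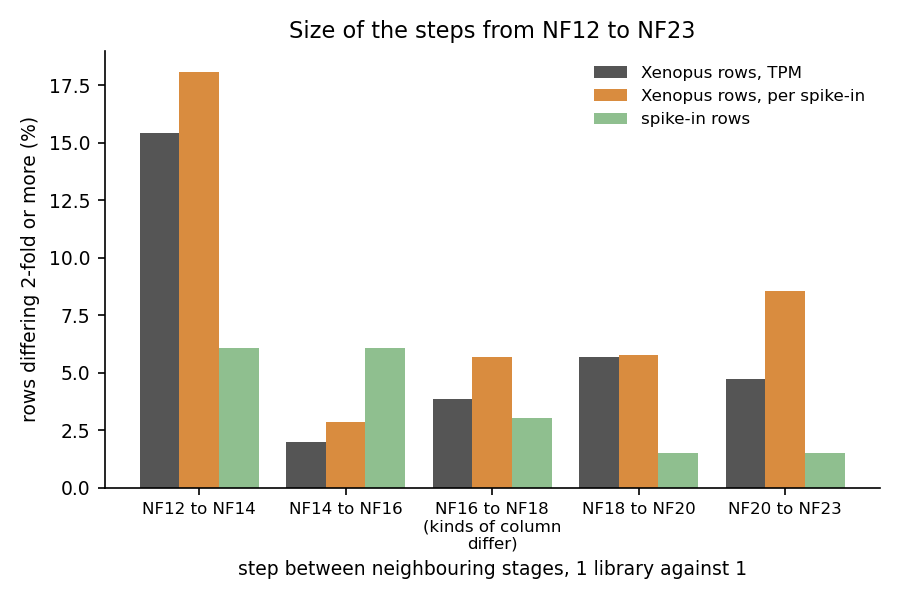
Percentage of rows that differ 2-fold or more (vertical axis) in each step between neighbouring stages (horizontal axis), for Xenopus rows in TPM and per spike-in total (10948 rows) and for spike-in rows relative to their own total (66 rows). The step from NF12 to NF14 is the highest, at 15.4% in TPM and 18.1% per spike-in, and the step that joins both kinds of column is at 3.85% and 5.68%.

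No row passed the test between the groups in TPM. Of 20588 rows that averaged 1 TPM or more over the 6 libraries, 0 were called higher and 0 lower at NF18-23 (limma, adjusted p under 0.05, 0% of rows in each direction), and the smallest adjusted p was 0.0869. Unadjusted p-values were under 0.05 for 6082 rows, or 29.5%, of which 2979 were higher and 3103 lower, and the median log2 difference was -0.01. The test has 4 residual degrees of freedom, and its spread is the distance between stages of a group. When a slope over stage within the groups was added to the fit, an alternative chosen after seeing the data, 1687 rows (8.19%) were called higher and 1841 (8.94%) lower. When the spread was shared with all 18 libraries in 6 groups of 3 stages, 3311 rows (16.1%) were called higher and 3187 (15.5%) lower, but that spread also draws on stages before gastrulation and after closure. Without the library of NF18 the counts were 1251 higher and 1217 lower.

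Since the count of calls turns on how the spread is taken, the members of the comparison are described below by separation. A row is called separated where its 3 libraries of one group all lie above its 3 libraries of the other and the group means differ by at least 1 on the log2(TPM + 1) scale, which is 2-fold and understates the difference of low rows. This rule was chosen after the values were seen and carries no test. By it 2064 rows (10.0%) were higher and 1321 rows (6.42%) lower at NF18-23. Large differences lay mostly on the higher side, with 565 rows higher and 168 lower by at least 4-fold, 143 and 29 by at least 8-fold, and 43 and 2 by at least 16-fold. Without the 2-fold minimum the groups did not overlap for 3840 rows higher (18.7%) and 4167 lower (20.2%). Leaving out 1 library moved the counts, to 3238 higher and 2097 lower without NF18 and to 829 lower without NF12. With only NF18 and NF20 set against NF14 and NF16, 1274 rows were higher and 523 lower. Non-overlap is easier to meet with fewer libraries in a group, yet 829, 1274 and 523 lie under the counts from all 6 libraries. The counts with libraries left out are therefore not made by the same rule as 2064 and 1321.

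**Figure D2:**
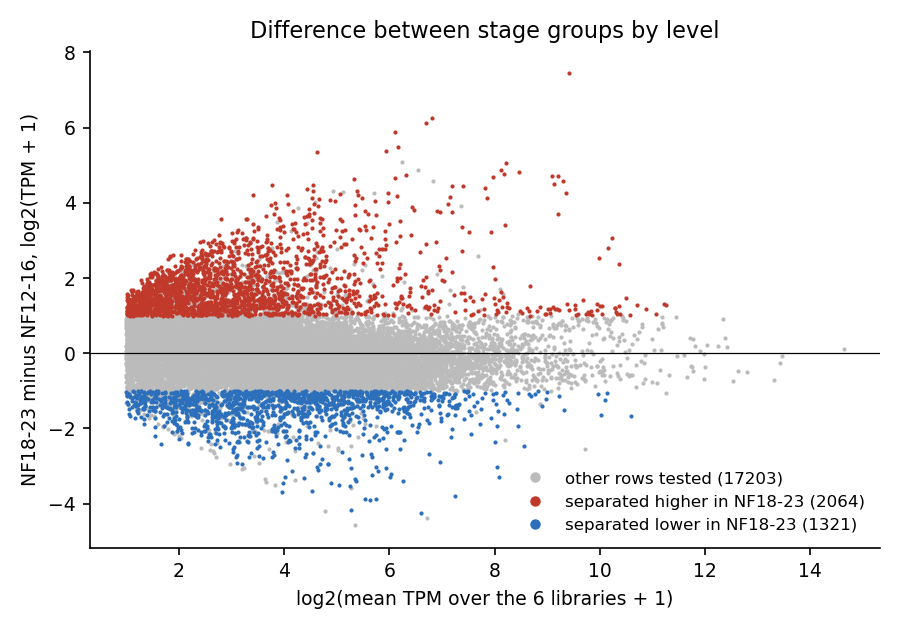
Difference of the group means, NF18-23 minus NF12-16, on the log2(TPM + 1) scale (vertical axis) against the log2 mean level over the 6 libraries (horizontal axis), 1 point per row tested (20588). The 2064 rows separated higher reach further from 0 than the 1321 rows separated lower, and the gray points past 1 in either direction are rows whose groups overlap.

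Spike-in rows have no stage, and the conversion altered the values of 69 of the 92. Relative to the spike-in total, the median log2 difference was -0.08, -0.11, -0.01 and -0.08 in the subgroups of ratio 1/4, 1, 1/0.67 and 2. The part of the conversion in the spike-in differences was not tested. Relative to their own total, 2 of 83 spike-in rows were separated by 2-fold or more, or 2.41%, against 16.4% of Xenopus rows in both directions together. Non-overlap without a minimum was common among spike-ins too, at 25.3%, against 38.9% of Xenopus rows. Limma called 2 spike-in rows higher (2.41%) and 1 lower (1.20%) at an adjusted p under 0.05. At an unadjusted p under 0.05 there were 18 spike-in rows, or 21.7%, against 29.5% of Xenopus rows. The robust SD of the log2 difference was 0.17 for spike-in rows and 0.75 for Xenopus rows. Differences without overlap were thus found for RNAs that have no stage as well, mostly under 2-fold. How far the kind of column moved Xenopus rows was not measured by these values.

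Divided by the spike-in total, the balance moved to higher. The median log2 difference of all rows tested was 0.43 on this scale, where the libraries of NF18-23 have the higher mean total. Separated rows numbered 3729 higher (18.1%) and 471 lower (2.29%), against 2064 and 1321 in TPM. Of the 2064 rows separated higher in TPM, 2060 were also separated higher per spike-in. Of the 1321 rows separated lower in TPM, 471 were separated lower per spike-in, and the other 850 overlapped or differed less than 2-fold. All 1321 had a lower mean on both scales, and none was separated higher per spike-in. The scales differ only by 1 factor per library, with a ratio of group means of 1.43, which is under the 2-fold minimum. The direction per spike-in was thus largely fixed by the choice of rows in TPM, and it is no separate check for either set. Without the library of NF18 the counts per spike-in were 6021 higher and 778 lower, and without NF16 871 rows were lower. Here too non-overlap is easier to meet with a library left out.

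Limma called 1 row higher per spike-in (0.00486% of rows) and 0 lower (0%), with 6159 rows at an unadjusted p under 0.05. The called row stood at 30.3, 89.0 and 22.8 TPM at NF18, NF20 and NF23 and was listed at 0 at NF12, NF14 and NF16. It was also listed at 0 at NF26 and NF33 and at 35.0 TPM at NF30 between them. Earlier it stood at 43.9 to 59.6 TPM from NF6 to NF7 and 19.1 TPM at NF8. It was listed at 0 at NF0, NF2 and from NF8.5 to NF10. Its levels thus formed runs of stages at 0 and above 10 TPM, and switched at each step from NF23 to NF33.

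Most separated rows also differed in the same direction between the first and the last stage inside each group. The kind of column is constant inside a group, and between the groups it cannot be told apart from stage. The rule for separated rows ignores the order of stages within a group, but it was applied to the same libraries. A level that moves one way over the stages favours non-overlap. The shares below therefore describe the sets and are no separate check. Of the 2064 rows separated higher, 1940 (94.0%) were also higher at NF23 than at NF18 and 1678 (81.3%) were higher at NF16 than at NF12, against 51.0% and 44.8% of all rows tested. Both held for 76.2% of them, against 24.7% of all rows tested. Of the 1321 rows separated lower, 1176 (89.0%) were lower at NF23 than at NF18 and 1238 (93.7%) were lower at NF16 than at NF12, against 48.2% and 53.2% of all rows tested. Both held for 83.8%, against 28.0%. A level that moved one way at each of the 5 steps was found for 702 rows of the higher set (34.0%) and for 402 rows of the lower set (30.4%). Such a row cannot overlap between the groups, so these counts are a description of the sets. Tested as 1 slope over stage within both groups, 0 rows rose and 0 fell (limma, adjusted p under 0.05, 0% of rows in each direction), with 3 residual degrees of freedom and 3416 rows, or 16.6%, at an unadjusted p under 0.05.

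The step from NF12 to NF14 was most often the largest of the 5. For 845 of the higher rows (40.9%) the largest step was from NF12 to NF14, for 77 (3.73%) from NF14 to NF16, for 419 (20.3%) from NF16 to NF18, for 420 (20.3%) from NF18 to NF20 and for 303 (14.7%) from NF20 to NF23. For the lower rows the step from NF12 to NF14 was the largest in 663 (50.2%), that from NF14 to NF16 in 13 (0.984%), that from NF16 to NF18 in 193 (14.6%), that from NF18 to NF20 in 260 (19.7%) and that from NF20 to NF23 in 192 (14.5%). Between NF14 and NF16 both sets stood nearly still, with a median log2 step of 0.08 for the higher and -0.01 for the lower rows. The agreement inside the earlier group therefore rests on NF12, since 58.8% of the higher rows were above their NF14 level at NF16, against 54.3% of all rows tested. From NF16 to NF18 the median step was 0.67 for the higher and -0.58 for the lower rows, whose sign the choice of rows fixes.

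The rows separated higher took up a growing part of the transcriptome. They held 8.65%, 12.6% and 18.1% of the Xenopus total at NF18, NF20 and NF23, against 2.33%, 5.35% and 5.71% at NF12, NF14 and NF16. The rows separated lower held 4.17%, 2.59% and 1.79% at NF18, NF20 and NF23, against 10.3%, 6.05% and 6.07% at NF12, NF14 and NF16. These shares describe the rows by the values that chose them. The libraries outside the comparison were not used in that choice. At NF26, NF30 and NF33 the higher rows held 19.8%, 22.5% and 25.6%, and the lower rows 1.75%, 1.44% and 1.33%. At NF10 the higher rows held 1.59%, their lowest share of the 18 libraries, and the lower rows 11.8%, their highest. Before that the higher rows held 3.72% at NF0 and 2.32% at NF9, and the lower rows 10.4% and 10.8%. The share of the higher rows thus declined up to NF10 before it grew. NF26-33 and NF12-16 have the same kind of column, and the part of the kind in these shares was not tested.

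**Figure D3:**
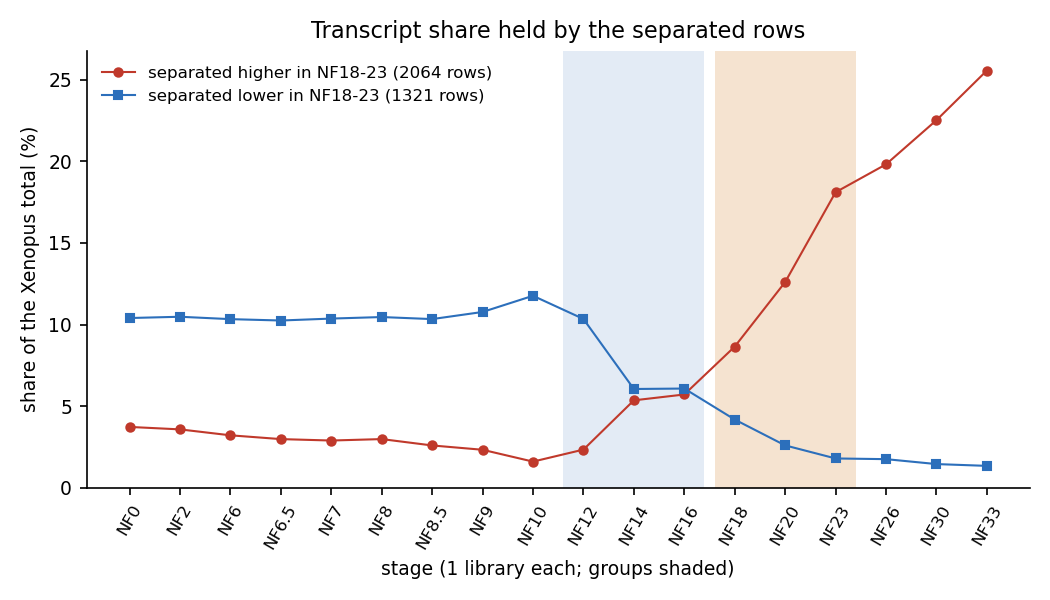
Share of the Xenopus total in percent (vertical axis) held by the rows separated higher and the rows separated lower at NF18-23, in each of the 18 libraries in order of stage (horizontal axis). The blue band marks NF12-16 and the orange band NF18-23, and the shares of the higher rows go on increasing to 25.6% at NF33.

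The levels of the separated rows after closure, at NF26-33, are given beside those of the groups compared. Both differences share the libraries of NF18-23. The median log2 difference between NF26-33 and NF18-23 was 0.52 for the higher and -0.45 for the lower rows, beside 1.57 and -1.34 between NF18-23 and NF12-16. A row of the higher set had a median level of 9.71 TPM at NF18-23 and 1.98 TPM at NF12-16, and 14.5 TPM later, at NF26-33. A row of the lower set had a median level of 6.91 TPM at NF18-23 and 21.9 TPM at NF12-16, and 4.72 TPM at NF26-33.

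Rows with little RNA in the early embryo were more often separated higher, and for rows separated lower no such order was seen. Rows were placed by their mean over the 6 libraries of NF0 to NF8, which are not part of the comparison, and up to about the mid-blastula nearly all RNA of a frog embryo is maternal. Of 4451 rows under 1 TPM in those libraries, 1303 (29.3%) were separated higher at NF18-23 and 238 (5.35%) lower, against 10.0% and 6.42% of all rows tested. Of 13040 rows at 10 TPM or more, 379 (2.91%) were separated higher and 981 (7.52%) lower. The 3097 rows in between had 382 (12.3%) higher and 102 (3.29%) lower. Rows under 1 TPM early thus made up 63.1% of the higher set, against 21.6% of all rows tested, and rows at 10 TPM or more early made up 74.3% of the lower set, against 63.3% of all rows tested. The filter on low values bears on these shares. Rows under 1 TPM early had to average 1 TPM or more over the 6 libraries, and 1196 of the 4451 were under 1 TPM at NF12-16 and passed only through NF18-23. They include 599 of the 1303 rows separated higher. In the middle class the same held for 102 of the 382 higher rows, and at 10 TPM or more early for 22 of the 379. Of the lower rows, 48 of 238, 36 of 102 and 85 of 981 in the 3 classes, from the lowest, were under 1 TPM at NF18-23. They passed only through NF12-16.

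For higher rows the order of the classes was the same among more abundant rows and on the spike-in scale. Neither is a separate check. The limit of 10 TPM was taken over the 6 compared libraries, so rows under 1 TPM early could pass it only through these. The spike-in scale holds the same values with 1 factor per library. Among the 10948 rows that averaged 10 TPM or more over the 6 libraries, 28.5% of those under 1 TPM early and 2.42% of those at 10 TPM or more early were separated higher, against 6.49% of all 10948 rows. In the same rows the lower share was 10.1% for those under 1 TPM early and 7.02% for those at 10 TPM or more early, against 7.21% of all, so the excess of lower rows among the early ones was not seen there. Per spike-in, 37.8%, 23.6% and 10.1% of rows under 1 TPM, from 1 to under 10 TPM and at 10 TPM or more early were separated higher, and 2.76%, 1.001% and 2.43% lower. The median log2 difference was 0.71, 0.24 and -0.17 in these 3 classes in TPM and 1.06, 0.62 and 0.30 per spike-in, so the sign for the rows with the most early RNA turned with the scale.

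**Figure D4:**
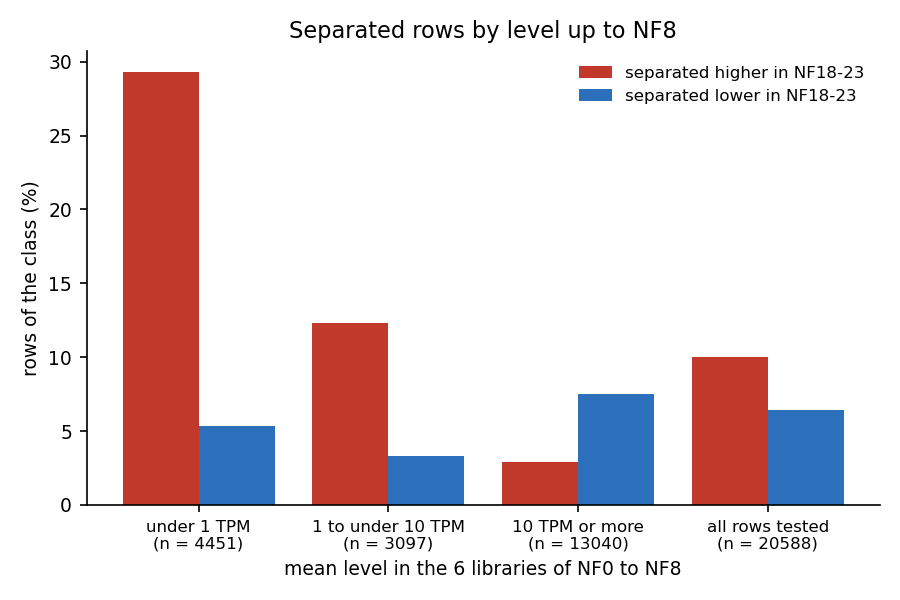
Percentage of rows (vertical axis) separated higher or lower at NF18-23, in TPM, by the mean level in the 6 libraries of NF0 to NF8 (horizontal axis, with the number of rows). Rows under 1 TPM early have 29.3% higher and 5.35% lower, and rows at 10 TPM or more early have 2.91% higher and 7.52% lower.

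Among the higher rows, those with RNA in the early embryo were fewer and held more of the total. The 379 higher rows with 10 TPM or more early held 5.32%, 6.80% and 9.08% of the Xenopus total at NF18, NF20 and NF23, against 1.91%, 3.596% and 3.798% at NF12, NF14 and NF16. The 1303 higher rows under 1 TPM early held 2.72%, 4.85% and 7.82% at NF18, NF20 and NF23, against 0.283%, 1.38% and 1.497% at NF12, NF14 and NF16. The smaller set thus held the larger share in each of the 6 libraries. Among lower rows the 981 with 10 TPM or more early held 3.23%, 2.08% and 1.51% at NF18, NF20 and NF23, against 7.97%, 4.61% and 4.62% at NF12, NF14 and NF16. The 238 lower rows under 1 TPM early held 0.817%, 0.433% and 0.228% at NF18, NF20 and NF23, against 2.03%, 1.24% and 1.24% at NF12, NF14 and NF16.

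Rows near 0 in one group and well present in the other were few. A mean of at least 10 TPM at NF18-23 and under 1 TPM at NF12-16 was found for 128 rows, of which 118 had also been under 1 TPM early. Of these 128 rows 18 first reached 10 TPM at NF18, 58 at NF20 and 52 at NF23. Together they held 0.114%, 0.238% and 0.650% of the Xenopus total at NF18, NF20 and NF23, against 0.00143%, 0.00594% and 0.00556% at NF12, NF14 and NF16. This contrast between the groups was fixed by the means that chose the 128 rows. At NF26-33 a mean of at least 10 TPM was seen for 95 of them and one under 1 TPM for 22. The opposite, under 1 TPM at NF18-23 and at least 10 TPM at NF12-16, was found for 42 rows, of which 21 had been under 1 TPM early and 17 at 10 TPM or more. The groups did not overlap for 79 of the 128 rows and for 10 of the 42. Of all rows tested, 18.7% did not overlap in the higher and 20.2% in the lower direction. A choice of rows by group means favours non-overlap, so these counts are a description. Of these 42, 28 stayed under 1 TPM at NF26-33 and 8 were back at 10 TPM or more. A 0 in a library of the higher group occurred in 44 of the 128 rows and in 31 of the 42, so the group means of many of these rows rest on 1 or 2 libraries.

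The rule for naming rows asked for an adjusted p under 0.05 on both scales, and 0 rows met it in either direction. The 4 rows below are the largest differences by the same rule without its p conditions, a choice made after the values were seen. They were present at 10 TPM or more in the higher group, never at 0 there, and without overlap on both scales. In this form 2158 of the 20588 rows tested qualified as higher and 935 as lower. Non-overlap alone held for 18.7% of rows tested higher and 20.2% lower in TPM. Per spike-in it held for 31.7% and 6.06%.

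The row XeXenL6RMv10033308m had 278, 1201 and 2454 TPM at NF18, NF20 and NF23, against 0, 155 and 0 TPM at NF12, NF14 and NF16. It was listed at 0 in all 9 libraries up to NF10 and stood at 4375 to 6934 TPM from NF26 to NF33. The value at NF14 stands alone between 2 zeros, and all later libraries lie above it. The log2 difference was 7.44 ± 1.86 (standard error; limma, adjusted p = 0.107). It was 6.23 without the library of NF12 and 9.87 without that of NF14.

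The row XeXenL6RMv10024076m had 64.6, 21.8 and 577 TPM at NF18, NF20 and NF23, against 0, 0.366 and 0.400 TPM at NF12, NF14 and NF16. NF23 was far above the other 2 later libraries, which in turn were far above each earlier one. It stood at 604, 161 and 223 TPM at NF26, NF30 and NF33. The log2 difference was 6.26 ± 1.01 (standard error; limma, adjusted p = 0.107). It was 4.96 without the library of NF23 and 7.29 without that of NF20.

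The row XeXenL6RMv10018740m had 12.1, 3.21 and 1.17 TPM at NF18, NF20 and NF23, against 475, 36.3 and 45.2 TPM at NF12, NF14 and NF16. Its level had been 30.2 to 33.7 TPM from NF0 to NF8 and was highest at NF10, at 784 TPM, so most of its decline came before NF14. From NF26 to NF33 it was under 1 TPM. The log2 difference was -4.25 ± 1.01 (standard error; limma, adjusted p = 0.107).

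The row XeXenL6RMv10048460m had 9.58, 1.53 and 0.119 TPM at NF18, NF20 and NF23, against 239, 26.3 and 14.8 TPM at NF12, NF14 and NF16. It was at or near 0 up to NF8, stood at 1.82 TPM at NF9 and 56.3 TPM at NF10, and was highest at NF12. The log2 difference was -3.92 ± 1.11 (standard error; limma, adjusted p = 0.107). Without the library of NF12 the log2 differences of this and the preceding row were -2.74 and -3.07, and without that of NF18 they were -4.80 and -4.95.

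**Figure D5:**
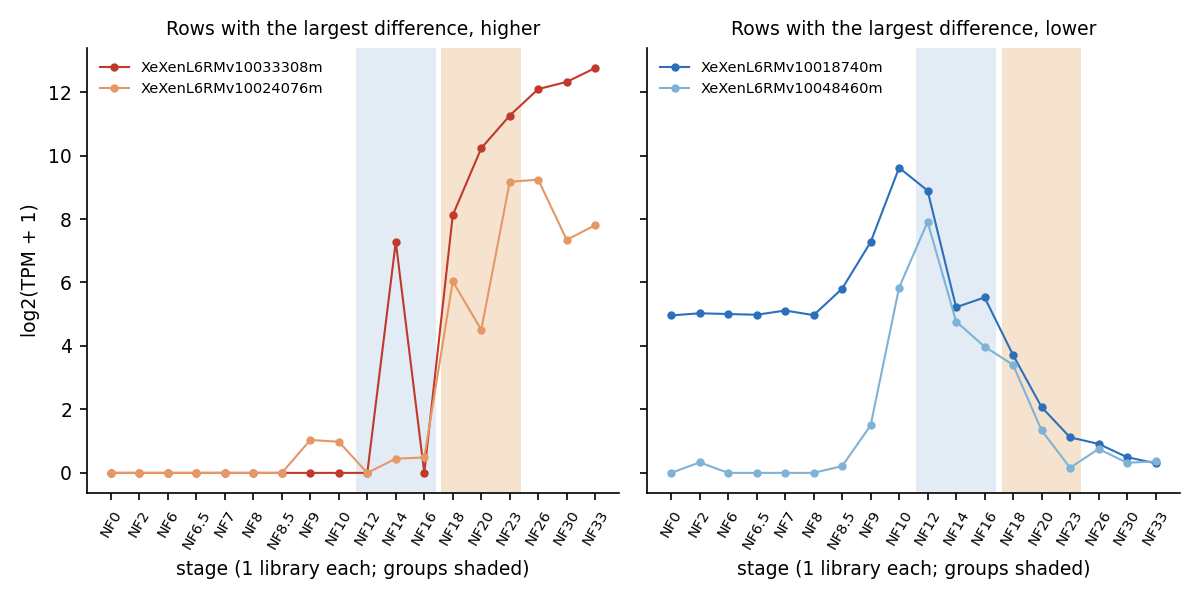
Level of the 4 named rows on the log2(TPM + 1) scale (vertical axis) in all 18 libraries in order of stage (horizontal axis), 2 rows with the largest higher difference at the left and 2 with the largest lower difference at the right. The blue band marks NF12-16 and the orange band NF18-23, and both rows at the right are highest at NF10 or NF12.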

How the data were processed

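Per the submitters' processing notes, CASAVA 1.8.2, Trimmomatic, Bowtie and RSEM were used, but their roles, order and reference are not stated. The genome build was not given in the sources used here. As deposited, 9 columns hold TPM over Xenopus and spike-in rows. The other 9 deposited columns hold a score on the same scale with converted spike-in rows. The assignment of spike-ins to mix ratios came from general knowledge of the product and was checked by the column totals.

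Xenopus rows of each library were rescaled to 1000000 without spike-ins (TPM), or divided by the spike-in total and scaled to a mean total of 1000000 over the 6 libraries. Rows averaging 1 TPM or more were tested as log2(value + 1) with limma 3.58.1 (R 4.3.3; lmFit and then eBayes with an intensity trend), Benjamini-Hochberg adjustment and a threshold of 0.05, over the 6 libraries only. The fits with a slope within groups, with equal-amount spike-ins, with a 6-degree spline and without both outermost stages were added after seeing the data. The scripts were tested on simulated data. Exact permutation tests enumerated all 20 divisions of 3 against 3. Rows to be named were the 2 largest differences in each direction with adjusted p under 0.05 and no overlap on both scales. Lists of marker genes were not run, since no row name has a symbol. The compared groups and all lists were chosen with earlier results of these data known. The depth of the libraries is unknown, so no counting interval is given.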

Additional observations from a re-analysis of the deposited data

How the results depend on the processing

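No paired analysis was possible because each library is a different stage and the labels give no replicate numbers. In TPM, limma called 0 rows higher and 0 lower; pseudocount 0.1 gave 1 higher, array weights 6784 higher and 6366 lower, all 18 libraries in 6 groups 3311 and 3187, a spline over stage with the kind of column as a term 5893 and 7771, that spline with 6 degrees of freedom 6101 and 6544, a slope within groups 1687 and 1841, and NF18 and NF20 against NF14 and NF16 2 and 1. Leaving out a library gave 0 to 1251 higher and 0 to 1217 lower, the most without NF18. The kind of column itself was called for 2954 rows higher and 1923 lower, of 20588 tested, beside the spline with 4 degrees of freedom. Beside that with 6 it was called for 0 and 0. At an unadjusted p under 0.05 the kind of column had 8042 rows with 4 degrees of freedom and 4476 with 6.

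Per spike-in, limma called 1 higher and 0 lower; pseudocount 5 and no filter gave 0 higher, all 18 libraries 5841 and 814, array weights 7286 and 2167, the spline 9672 and 2998, and leaving out a library 0 to 3018 and 0 to 383, the most without NF18. Separated rows in TPM, 2064 higher and 1321 lower, became 872 and 655 with pseudocount 5, 1146 higher with a mean of at least 5 TPM, 760 lower with the deposited values not rescaled (median log2 difference 0.16), 1274 and 523 without NF12 and NF23, and 1641 to 3238 and 829 to 2097 when a library was left out. Median ratio scaling gave 2149 and 1196. Per spike-in the 3729 higher and 471 lower became 1781 and 192 with pseudocount 5, 2366 higher with a mean of at least 5 TPM, and 2512 to 6021 and 337 to 871 when a library was left out. Against the equal-amount spike-ins they were 3998 and 438.

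The ratio of the Xenopus total per spike-in kept its direction, at 1.24 to 1.58 when a library was left out. The same holds for rows above 0 (ratio of means 1.02 to 1.06), rows at 10 TPM (1.003 to 1.04) and the share of the top 100 rows (1.03 to 1.09). Steps of 15.4%, 1.99%, 3.85%, 5.69% and 4.74% became 9.92%, 1.31%, 2.27%, 3.59% and 2.85% with pseudocount 5, and 18.1%, 2.87%, 5.68% and 8.56% per spike-in for all but NF18 to NF20. Spike-in rows called numbered 3, and 5 with pseudocount 5. The 102 lower rows of the middle class became 60 with a class limit of 5 TPM. With a mean of at least 10 TPM, rows under 1 TPM early had 383 higher and 135 lower, the middle class 113 and 31, and rows at 10 TPM or more early 215 and 623. The 4 named rows kept their direction in each of 72 alternative results, counted by row and setting, of which 24 had an adjusted p under 0.05 (limma). These rows were chosen for large differences without overlap, so the kept direction was nearly fixed by that choice. The slope within both groups was called for 0 rows in each of its 3 alternatives. The cause of these moves was not tested.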

Other observations

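Rows highest at the stages of closure were counted over all 18 libraries. In 19 rows each of the 3 libraries of NF18-23 stood at least 2-fold above every one of the other 15 libraries, with group means of 10.1 to 29.4 TPM and a median of 17.0 TPM. All 19 were under 1 TPM from NF0 to NF8, and their median was 0 TPM both at NF12-16 and at NF26-33. The choice of these rows favours low values in the other 15 libraries, so these levels are a description. NF12-16 and NF26-33 both differ from NF18-23 in the kind of column, and its part was not tested. They were highest at NF18 in 6 rows, at NF20 in 4 and at NF23 in 9. The same measure gave 15 rows for NF12-16 and 215 for NF26-33, and 3 to 12 for the earlier groups. At NF18-23, 4 rows stood at least 2-fold below every other library, against 30 at NF12-16, 36 at NF26-33 and 0 to 1 in the earlier groups.

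The gain and the loss in TPM were spread over different numbers of rows. Rows with a higher mean at NF18-23 gained 19.1% of the Xenopus total in sum, and 141 rows made up 50% of this gain. Rows with a lower mean lost 19.2% in sum, and it took 432 rows to make up 50% of this loss. Every library was rescaled to the same total, so the near match of both sums was fixed, apart from rows not tested. A loss here is a loss of share. The 10 rows with the largest change held 9.59% of the gain and 10.9% of the loss.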
